A study of Homo sapiens with 8 samples.

Results

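Heat shock and endoplasmic reticulum (ER) chaperone genes were followed by nascent RNA in human colorectal cancer cells. They were taken by symbol from the deposited count tables as HSF1, HSPA8, HSPH1, DNAJB1, HSP90AA1, HSP90AB1, HSPD1, HSPE1, HSPA5 and HSP90B1. Of these 10 genes, 9 had a row among the 18638 gene models of each table, and all 9 passed the filter on low counts in both cell lines. RNA of HSPE1 was not analysed here. Nascent RNA was isolated by factory-seq, in which nuclei are treated with DNase I and the RNA held at sites of transcription is then freed with a caspase mix. The series has 8 libraries in 4 groups of 2.

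The DLD-1 line, from a colorectal adenocarcinoma, carries POLR2A with an mAID degron and the fluorescent tag mClover, together with Tet-OsTIR1. POLR2A encodes RPB1, the main catalytic subunit of RNA polymerase II, and the cells were either untreated or given auxin. The HCT116 line, from a colorectal carcinoma, carries the same degron on the topoisomerase TOP2A, as TOP2A-mAID controls and as a group that also lacks TOP2B by its label, written TO2B-/- in the genotype field. With auxin present, the plant protein TIR1 directs the tagged protein to degradation. The stated treatment was 24 h of doxycycline to induce TIR1 and then 500 µM auxin for 14 h. It is not said whether untreated cells received doxycycline, whether the replicates were separate cultures or how many clones were used. Titles call all libraries asynchronous, while the protocol mentions a sort for G1 cells without saying where it was applied. The titles of the TOP2B-/- TOP2A-mAID libraries read as control, but their treatment field and column names read as auxin, so genotype and auxin cannot be told apart in this group.

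Molecular chaperones bind unfolded or newly made proteins and help them to fold. In the cytosol, HSP70 proteins work with J-domain proteins, which stimulate their ATPase, and with nucleotide exchange factors, and then pass many clients on to HSP90. When unfolded proteins build up, the transcription factor HSF1 binds heat shock elements and switches on many of these genes, whereas unfolded proteins in the ER act through the unfolded protein response and ER stress elements. Some members, such as HSPA8 and HSP90AB1, are also made at high levels in cells that are not stressed.

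The promoter motifs are shown first because they divide the members by the regulatory letters near their start sites. RefSeq promoter windows of GRCh38.p14, from 250 bases before to 50 bases after a start site, were found for 9 of the 10 genes, HSPE1 included and HSF1 not, and numbered 15 since some genes have several start sites. A heat shock element, searched on both strands as GAA, any 2 bases, TTC, any 2 bases and GAA, was present in 4 of the 15 windows, against 0.49% of 35116 promoter windows. An ER stress element, searched on both strands as CCAAT, any 9 bases and CCACG, was present in 2 of the 15, against 0.0769% of all windows. In the stretches below, read along the gene's own strand, capitals mark the matches and the flanks hold up to 15 bases.
HSPA8, chr11:123062164-123062381, minus strand: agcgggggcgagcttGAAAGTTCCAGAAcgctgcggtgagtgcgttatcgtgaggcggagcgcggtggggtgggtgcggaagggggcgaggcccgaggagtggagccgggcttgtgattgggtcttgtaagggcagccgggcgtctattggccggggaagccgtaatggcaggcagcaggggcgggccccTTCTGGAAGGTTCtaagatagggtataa
HSP90AA1, chr14:102087105-102087147, minus strand: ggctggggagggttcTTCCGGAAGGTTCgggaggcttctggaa
HSP90AB1, chr6:44247763-44247858, plus strand: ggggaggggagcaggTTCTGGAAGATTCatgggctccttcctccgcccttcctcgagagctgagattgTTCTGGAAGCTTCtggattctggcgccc
HSPD1, chr2:197500053-197500090, minus strand: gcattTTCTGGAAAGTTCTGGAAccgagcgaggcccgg
HSPA5, chr9:125241376-125241424, minus strand: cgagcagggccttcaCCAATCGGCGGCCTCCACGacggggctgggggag
HSP90B1, chr12:103930201-103930354, plus strand: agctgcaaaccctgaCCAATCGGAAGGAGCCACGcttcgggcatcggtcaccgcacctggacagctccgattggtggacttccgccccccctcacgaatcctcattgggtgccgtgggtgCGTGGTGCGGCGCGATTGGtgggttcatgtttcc

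The cytosolic members HSPA8, HSP90AA1 and HSP90AB1 and the mitochondrial member HSPD1 thus held heat shock elements, and the ER members HSPA5 and HSP90B1 held ER stress elements. The windows of HSPA8, HSP90AB1 and HSPD1 had 2 heat shock matches each, which overlap in HSPD1. In HSP90AA1 the match lay before an internal start site, 52705 bp downstream of the first one. In HSP90AB1 and HSPD1 the matches also lay only in windows of later start sites. These sites were 1777 and 434 bp downstream of the start of the gene model, and the other windows of both genes held no match. The HSPD1 and HSPE1 promoters face each other, and their windows overlapped by 204 bp. No match was found in the windows of HSPH1 and DNAJB1, which says only that these letters are not there. A match is a description of sequence, and binding was not measured.

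Total counts were 36906755 to 62626875 in the DLD-1 controls, 10739622 to 14183633 after auxin, and 32129400 to 36491540 in HCT116. A background was taken as the median read density over 3111 genes that were lowest in the controls of the other cell line. Extended over the counted length of all models, it came to 2.24% and 9.02% of the total in the DLD-1 controls. It was 39.5% and 59.6% after auxin, and 0.256% to 3.03% in HCT116. Of 10 colon epithelial markers, 8 were at 2 or more times this background in both DLD-1 controls, 5 in both auxin libraries and 6 in each HCT116 group. CDX1 and LGALS4 were below this in every group. CPM are read counts relative to library size, here after TMM scaling. Summed CPM of the colon markers was 5598 to 7224 in the DLD-1 controls, 3736 to 5189 after auxin and 2904 to 5026 in HCT116. For 12 markers of blood, endothelium, fibroblasts and muscle it was 22.03 to 52.7, 237 to 255 and 57.3 to 75.4. Of these 12, 2 were at 2 or more times background in both DLD-1 controls and 3 in both auxin libraries. In HCT116 the numbers were 5 in the controls and 4 in the TOP2B-/- TOP2A-mAID group. In both libraries of any group, 0 of these 12 were at 0. How background and these markers bear on each gene was examined only by subtracting the background. The targeted genes were not called for POLR2A in DLD-1 (log2 fold change -0.78, edgeR adjusted p = 0.0773) or TOP2A in HCT116 (-0.09, adjusted p = 0.466), and auxin acts on their proteins. TOP2B RNA fell by 0.50 on the log2 scale in the TOP2B-/- TOP2A-mAID libraries (edgeR adjusted p = 0.0269), with reads remaining.

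Auxin-treated and untreated DLD-1 cells, in which RPB1 carries the degron, were compared first. RPB1 protein was not measured here. The chaperone genes did not move as a block. HSF1, the cytosolic HSP70 gene HSPA8 with its partners DNAJB1 and HSPH1, and the ER HSP70 gene HSPA5 fell, HSP90AA1 rose, and HSP90AB1, HSPD1 and HSP90B1 were not called. HSPA8 fell 10.9-fold and DNAJB1 fell 4.23-fold, while HSP90AA1 rose 1.74-fold. Of the 9 genes, 6 were called by edgeR's quasi-likelihood test at an adjusted p under 0.05, 5 lower and 1 higher. The same test called 67.3% of all 17625 genes tested (35.0% lower and 32.2% higher), so the share of members called was near the background. The number called was 1 without auxin replicate 1, where 13.6% of all genes were called, and 2 without auxin replicate 2, where 18.1% were. The median log2 fold change of the 9 was -0.97, against -0.06 over all genes tested, and fold changes below are relative to TMM scaling, which assumes that most genes do not change. With library totals in place of TMM the median of all genes moved to 0.57, and 4 members were called higher and 2 lower, against 42.8% and 19.2% of all genes. After background subtraction 4 were called higher and 3 lower, against 27.7% and 32.0% of all genes. HSF1 was among the 3 lower, although it had no reads left in either auxin library. The members' median was then 0.33 against -0.16, with HSF1 included. With a factor of unwanted variation the members' median was -0.21 against -0.51. The balance of directions among the members therefore depended on these settings. In bulk libraries, fewer cells and less RNA per cell cannot be told apart.

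**Figure D1:**
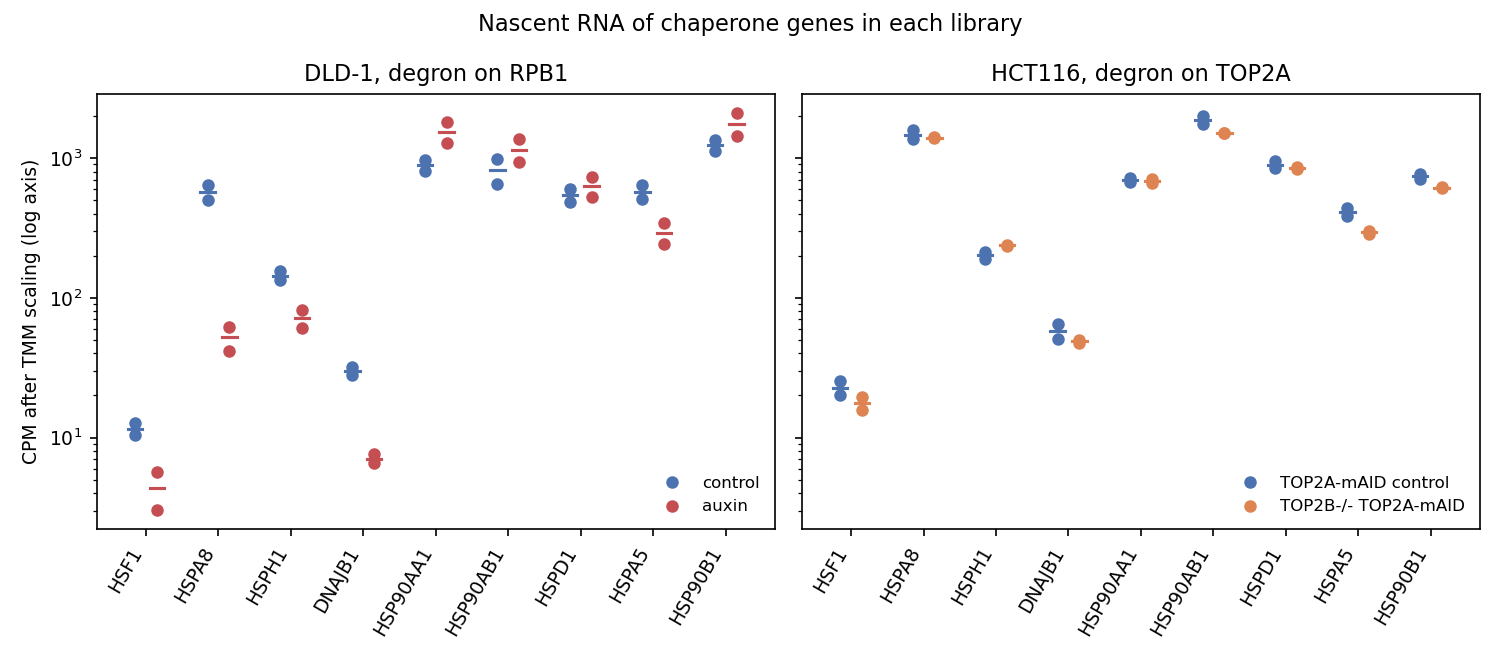
CPM (read counts relative to library size) after TMM scaling, on a log axis, for the 9 chaperone genes in each library (points) with the mean of each group (bars). HSPA8 dropped from 637 and 497 CPM to 62.2 and 41.7 CPM after auxin in DLD-1, whereas the HCT116 groups lie close together for every gene.

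HSF1 encodes the master regulator of the heat shock response. Its model (NM_005526) spans chr8:144291588-144314722 and overlaps DGAT1 on the opposite strand by 140 bp. HSF1 had 12.7 and 10.4 CPM in the controls and 5.63 and 3.05 CPM after auxin, and per kb its level was the lowest of the members in every library. The groups did not overlap, and the log2 fold change was -1.41 (SE 0.42, edgeR adjusted p = 0.037). The auxin libraries held 97 and 42 reads over HSF1, which is 0.857 and 0.324 times the background expected over its length, against 21.8 and 4.72 times in the controls. HSF1 RNA was therefore not detectable above background after auxin. Subtraction left no reads for it in either auxin library, so the fold fitted then is not given. The fall was not called with library totals alone, with a factor of unwanted variation, among genes of at least 5 mean CPM, or without auxin replicate 1 or 2.

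HSPA8 encodes HSC70, the constitutive cytosolic HSP70 (NM_006597, chr11:123057492-123062335, minus strand). It was measured at 637 and 497 CPM in the controls and at 62.2 and 41.7 CPM after auxin. Every auxin value lay far below every control value. The log2 fold change of -3.45 (SE 0.29, edgeR adjusted p = 0.00421) was among the lowest, with 59 of 17625 genes below it. HSPA8 was called in all 12 other settings, with log2 fold changes from -3.67 to -2.19. Its reads remained at 47.7 and 22.3 times background after auxin, so RNA was still detected. Of its span of 4844 bp, 4589 bp were counted, and reads shared with its processed pseudogenes could not be resolved here.

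The partners of HSP70 also fell, by smaller values than HSPA8. DNAJB1 encodes HSP40, a J-domain co-chaperone (NM_006145, chr19:14514764-14518559), and went from 31.9 and 27.9 CPM to 7.60 and 6.54 CPM. This was a log2 fold change of -2.08 (SE 0.24, edgeR adjusted p = 0.0052), and the groups did not overlap. It kept its call in all settings other than the fit without auxin replicate 1 (adjusted p = 0.0502). HSPH1 encodes HSP110, a nucleotide exchange factor of HSP70 (NM_001286505, chr13:31134974-31162388). It had 154 and 134 CPM in the controls and 81.3 and 60.9 CPM after auxin, a log2 fold change of -1.02 (SE 0.21, edgeR adjusted p = 0.018). The direction for HSPH1 depended on background: it was 0.09 after background subtraction, and the call was also lost with library totals alone, with a factor of unwanted variation and without auxin replicate 1 or 2.

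The cytosolic HSP90 genes had higher mean levels after auxin. HSP90AA1 encodes the stress-inducible HSP90 alpha (NM_001017963, chr14:102080738-102139749) and had 969 and 804 CPM in the controls and 1806 and 1282 CPM after auxin. The groups did not overlap, and HSP90AA1 was the only member called higher, with a log2 fold change of 0.80 (SE 0.27, edgeR adjusted p = 0.0493). That call was lost whichever of the 4 libraries was left out (adjusted p from 0.0916 to 0.297), although the log2 fold change stayed between 0.63 and 2.10 in all 12 other settings. HSP90AB1 encodes the constitutive HSP90 beta (NM_001271970, chr6:44246166-44253888), with 978 and 656 CPM in the controls and 1364 and 930.4 CPM after auxin. Its groups overlapped, and the log2 fold change of 0.49 (SE 0.32) was not called (edgeR adjusted p = 0.22). It was called with library totals alone (1.13), with a factor of unwanted variation (1.69), after background subtraction (1.80) and with the replicate block (0.49), each time higher after auxin.

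HSPD1 encodes HSP60, the chaperonin of the mitochondrial matrix, whose co-chaperonin HSP10 is encoded by HSPE1. Its model (NM_199440, chr2:197486584-197500274) overlaps the HSPE1-MOB4 readthrough model on the opposite strand by 278 bp. HSPD1 had 597 and 488 CPM in the controls and 729 and 524 CPM after auxin. These ranges overlapped, and the log2 fold change of 0.21 (SE 0.25) was not called (edgeR adjusted p = 0.479). It was called higher with library totals alone (0.84) and after background subtraction (1.51).

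The ER chaperones HSPA5 and HSP90B1, which both hold an ER stress element, had log2 fold changes of opposite sign. HSPA5 encodes BiP, the ER HSP70 (NM_005347, chr9:125234848-125241387), and had 639 and 508 CPM in the controls and 343 and 242 CPM after auxin. The groups did not overlap, and the log2 fold change was -0.97 (SE 0.25, edgeR adjusted p = 0.0292). It lost its call in 7 of 12 other settings, among them library totals alone, leaving out either auxin replicate, and background subtraction, after which the value was 0.33. HSP90B1 encodes GRP94, the ER HSP90 (NM_003299, chr12:103930334-103947930), and had 1356 and 1115 CPM in the controls and 2088 and 1438 CPM after auxin. All its auxin values were above its control values, but the log2 fold change of 0.51 (SE 0.28) was not called (edgeR adjusted p = 0.161). With library totals alone (1.15), among genes of at least 5 mean CPM (0.89) and after background subtraction (1.82) it was called higher.

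**Figure D2:**
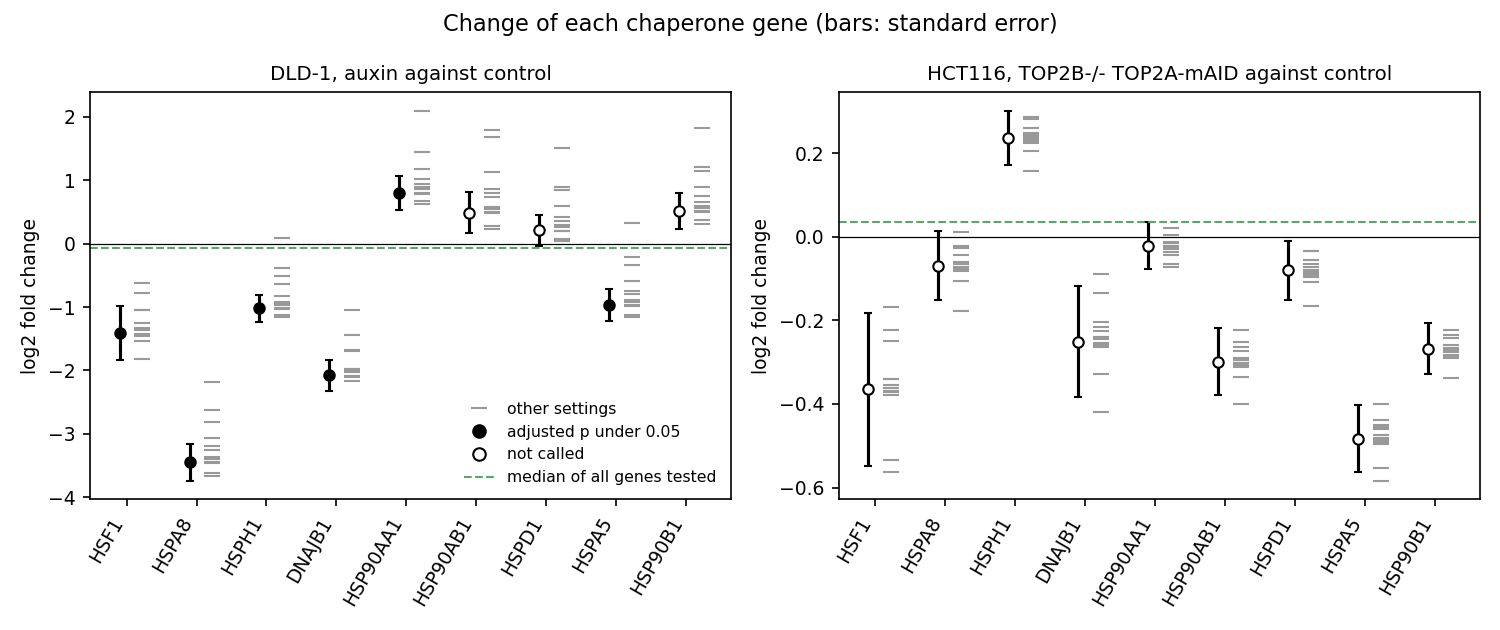
Log2 fold change of each chaperone gene with its standard error (circles, filled where the adjusted p is under 0.05), the values under other settings (grey ticks) and the median of all genes tested (dashed line). In DLD-1 HSPA8 at -3.45 and DNAJB1 at -2.08 stay below 0 in every setting, whereas HSPH1 and HSPA5 cross it, and in HCT116 no gene was called.

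Ratios of reads between members within a library do not depend on how libraries were scaled. They set the genes apart without reference to the rest of the transcriptome, but do depend on background, and pairs were chosen after their values were seen. HSP90AA1 had 1.52 and 1.62 reads for each HSPA8 read in the DLD-1 controls and 29.0 and 30.7 after auxin. HSP90AB1 to HSPA8 went from 1.53 and 1.32 to 21.9 and 22.3, and HSPD1 to HSPA8 went from 0.937 and 0.981 to 11.7 and 12.5. Each of these ratios was close between replicates and far apart between groups.

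The ratios within a compartment or complex also shifted. DNAJB1 to HSPA8 rose from 0.0501 and 0.0561 to 0.122 and 0.157, and HSPH1 to HSPA8 from 0.242 and 0.270 to 1.31 and 1.46, so HSPA8 lost more reads than either partner. In the ER, HSP90B1 to HSPA5 went from 2.12 and 2.20 to 6.09 and 5.94. By contrast, the ER and cytosolic HSP90 genes stayed near each other, with HSP90B1 to HSP90AA1 at 1.40 and 1.39 before and 1.16 and 1.12 after auxin. The smallest two-sided p that an exact permutation test allows for 2 against 2 libraries is 0.333, so these ratios stand as descriptions.

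**Figure D3:**
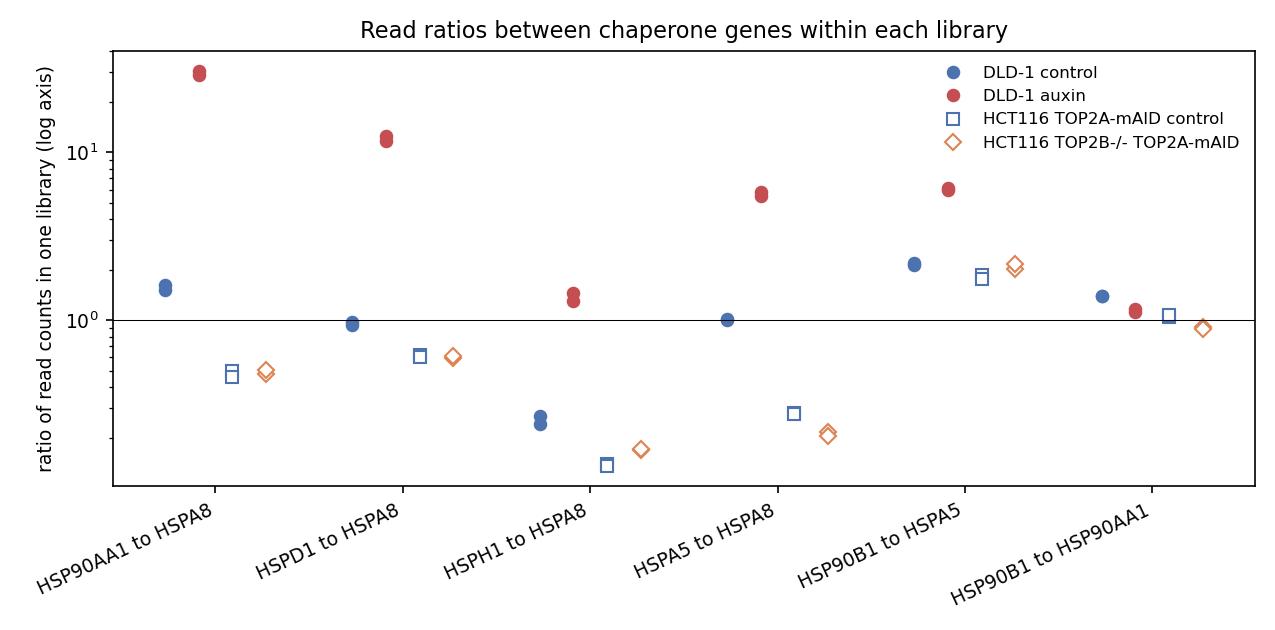
Ratio of read counts between pairs of chaperone genes in each library, on a log axis, with filled symbols for DLD-1 and open symbols for HCT116. HSP90AA1 to HSPA8 lies at 1.52 and 1.62 in DLD-1 controls and at 29.0 and 30.7 after auxin, and at 0.457 to 0.504 in all 4 HCT116 libraries.

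HCT116 cells were then compared, TOP2B-/- TOP2A-mAID against TOP2A-mAID controls. Differences were small: the 9 log2 fold changes ran from -0.48 for HSPA5 to 0.24 for HSPH1, with a median of -0.25 against 0.03 over all genes tested. None of the 9 was called by edgeR's quasi-likelihood test, which called 3.41% of 15273 genes. At an unadjusted p under 0.05 there were 4 of the 9 members and 22.9% of all genes. DESeq2 called the same 4, HSPH1 higher and HSP90AB1, HSPA5 and HSP90B1 lower, where it called 15.3% of genes. Without control replicate 1 edgeR called 4 members and 16.0% of genes, and without control replicate 2 it called 1 and 2.8%.

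The ER chaperones had lower values in the TOP2B-/- TOP2A-mAID libraries, and HSPA5 had the lowest log2 fold change of the 9 genes. HSPA5 had 383 and 438 CPM in the controls and 299.5 and 288 CPM in the TOP2B-/- TOP2A-mAID libraries, with no overlap and a log2 fold change of -0.48 (SE 0.080, edgeR adjusted p = 0.0681). It was called in 8 of 13 other settings, including the replicate block with crossed numbers, which was chosen after seeing the data. Log2 fold changes ran from -0.58 to -0.40. The adjusted p was 1.73e-07 with DESeq2 and 0.237 with the replicate block in edgeR. HSP90B1 had 707 and 774 CPM against 605 and 624 CPM, again without overlap (-0.27, SE 0.060, edgeR adjusted p = 0.108). Neither ER gene reached the threshold in edgeR's test.

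Among the cytosolic genes, HSP90AB1 had 1737 and 1997 CPM in the controls and 1514 and 1521 CPM in the other group (-0.30, SE 0.079, edgeR adjusted p = 0.14). HSPH1 had 191 and 212 CPM against 236 and 239 CPM (0.24, SE 0.065, edgeR adjusted p = 0.147). Neither pair of groups overlapped, and HSPH1 was the only member with both TOP2B-/- TOP2A-mAID libraries above both controls. DNAJB1 had 51.0 and 64.9 CPM against 49.9 and 47.5 CPM (-0.25, SE 0.13, edgeR adjusted p = 0.354), and HSF1 had 20.1 and 25.5 CPM against 19.5 and 15.8 CPM (-0.37, SE 0.18, edgeR adjusted p = 0.334). For every member but HSPH1, DNAJB1 and HSF1 included, control replicate 2 was the highest of the HCT116 libraries. It was above control replicate 1 for all members.

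The remaining members overlapped between groups. HSPA8, which fell the most in DLD-1, had 1359 and 1575 CPM in the HCT116 controls and 1393 and 1403 CPM in the other group (-0.07, SE 0.083, edgeR adjusted p = 0.656). HSP90AA1 had 676 and 720.4 CPM against 668 and 708 CPM (-0.02, SE 0.056, adjusted p = 0.824), and HSPD1 had 847 and 947 CPM against 832 and 863 CPM (-0.08, SE 0.070, adjusted p = 0.557). The standard errors were 0.056 to 0.18 here and 0.21 to 0.42 in DLD-1. Over all 36 pairs of members, which share genes, the median absolute log2 change of the read ratio was 0.224 in HCT116 and 1.53 in DLD-1, and the largest was 0.719 and 4.25. The ratios did not overlap between groups in 28 of the 36 pairs in HCT116 and in 34 in DLD-1. The share over pairs of all genes was not computed, so these counts do not set the members apart from other genes. The difference between the cell lines was not tested, since each line was counted in its own table.

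Levels were also set per kb of counted length, which allows genes to be ordered. In the DLD-1 controls HSPA8 stood highest at 124 ± 21.6 CPM per kb, followed by HSP90AB1 (106 ± 29.5), HSPA5 (87.6 ± 14.1), HSP90B1 (70.7 ± 9.74), HSPD1 (39.6 ± 5.66), HSP90AA1 (15.02 ± 1.98), DNAJB1 (7.88 ± 0.757), HSPH1 (5.26 ± 0.527) and HSF1 (0.500 ± 0.0707; SD, n = 2 throughout). HSPA8 and HSP90AB1, and HSP90AB1 and HSPA5, overlapped between libraries, and the other neighbours did not. After auxin HSP90AB1 led at 149 ± 39.7 and HSP90B1 came next at 101 ± 26.3 CPM per kb, while HSPA8 was sixth at 11.3 ± 3.16 (SD, n = 2). Of the neighbours in that order, HSPD1 (45.7 ± 10.6) and HSPA5 (44.7 ± 10.9) overlapped. The constitutive HSP70 gene therefore went from the top of the list to below HSP90AA1 (26.2 ± 6.28).

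In HCT116 the order was the same in both groups: HSPA8, HSP90AB1, HSPD1, HSPA5, HSP90B1, DNAJB1, HSP90AA1, HSPH1 and HSF1. HSPA8 had 320 ± 33.2 CPM per kb in the controls and 305 ± 1.47 in the TOP2B-/- TOP2A-mAID libraries (SD, n = 2). HSP90AB1 had 242 ± 23.8 and 197 ± 0.660, and HSF1 had 0.985 ± 0.166 and 0.765 ± 0.113 CPM per kb. HSPD1 and HSPA5 overlapped in the controls and not in the other group. HSPA8 thus led HSP90AB1 without overlap in this line. The HSP90AA1 model is 59012 bp long, most of it upstream of the internal start, and reads were not divided between the start sites.

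Other genes of the pathways were counted from 4 lists, in which 39 of 42 ER genes and 25 of 26 heat-inducible genes had a row. In DLD-1, 37 cytosolic chaperone and co-chaperone genes had 3 called higher and 15 lower (median log2 fold change -0.47), and 20 mitochondrial chaperone and protease genes had 1 higher and 9 lower (-0.74). Among 39 ER chaperone and unfolded protein response genes 3 were higher and 21 lower (-0.66), and among 22 heat-inducible genes and HSF regulators 4 were higher and 8 lower (-0.46), against a median of -0.06 over all genes tested, of which 32.2% were called higher and 35.0% lower. With library totals alone 10 cytosolic genes were higher and 6 lower, and 11 ER genes were higher and 9 lower. The mitochondrial list had 3 higher and 4 lower, and the heat-inducible list 6 and 4. Over all genes tested 42.8% were higher and 19.2% lower in that setting. After background subtraction the counts were 16 and 7 for the cytosolic list and 16 and 6 for the ER list. They were 8 and 5 for the mitochondrial list and 7 and 5 for the heat-inducible list. Over all genes tested 27.7% were then higher and 32.0% lower. With library totals alone the medians were 0.16, -0.10, -0.02 and 0.18 against 0.57, so the cytosolic and heat-inducible lists changed sign but remained below the median of all genes. After background subtraction the medians were 0.32, 0.06, 0.23 and -0.23 against -0.16, so the lower position of the first 3 lists did not hold once background was removed. With a factor of unwanted variation they were -0.22, -0.31, -0.29 and -0.13 against -0.51, so no list lay below the median of all genes.

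**Figure D4:**
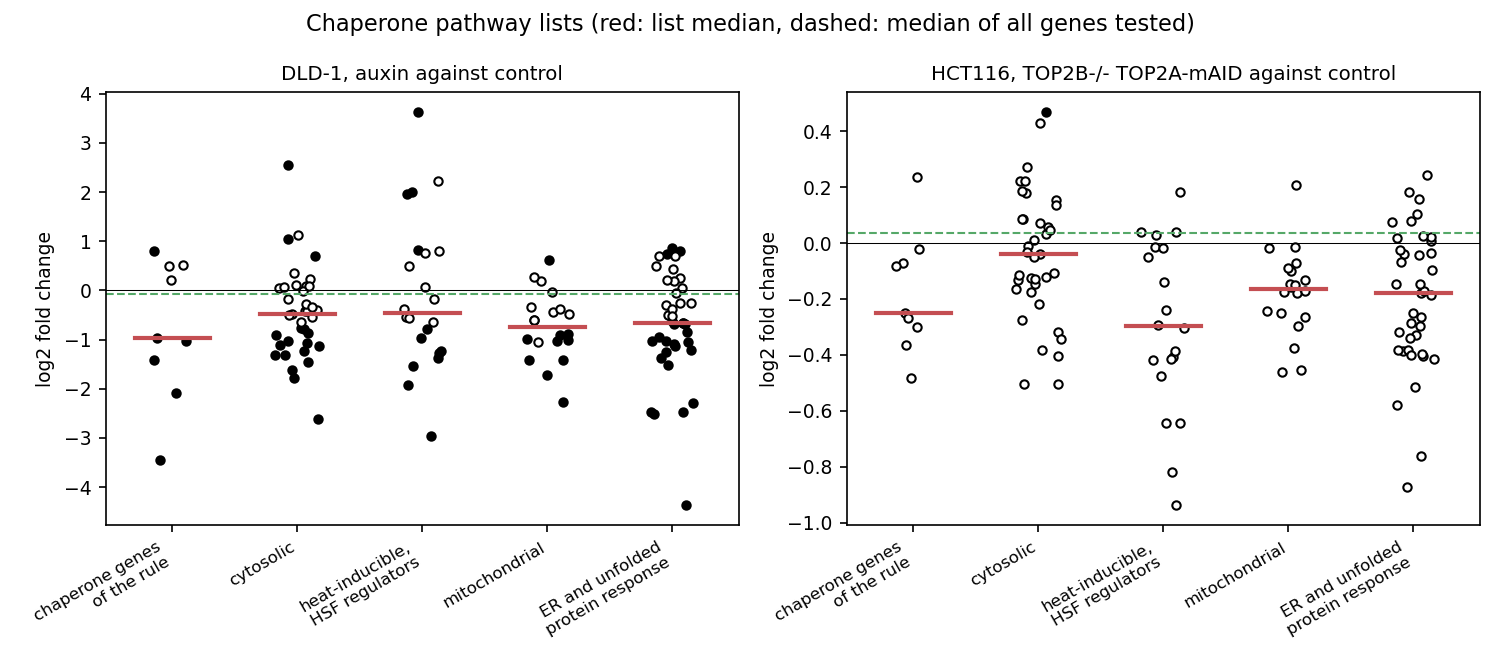
Log2 fold change of each tested gene (filled where the adjusted p is under 0.05) in the chaperone genes and 4 pathway lists, with the list median (red) and the median of all genes tested (dashed). In DLD-1 the 4 list medians lie from -0.74 to -0.46, below the overall median of -0.06, and in HCT116 1 gene of the 4 lists, FKBP5, was called.

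The genes with the largest falls per list in DLD-1 came from several compartments. TRIB3, a pseudokinase induced in ER stress, fell from 135 and 122 CPM to 5.22 and 7.20 CPM (log2 fold change -4.37, edgeR adjusted p = 0.00421), which is the background level after auxin (1.09 and 1.04 times). XBP1, a transcription factor of the unfolded protein response, fell from 121 and 130.4 CPM to 23.6 and 20.6 CPM (-2.51, adjusted p = 0.00421). DNAJA2, another J-domain partner of HSP70, fell by 2.62 on the log2 scale, and HSPA13, an HSP70-like protein of microsomes, by 1.78. SERPINH1, which encodes the collagen chaperone HSP47, fell by 1.92. TIMM44 and DNAJC19, both of the mitochondrial import motor, fell by 2.27 and 1.72, from 148 and 34.2 times background to 2.64 and 1.71 times in TIMM44. The edgeR adjusted p of DNAJA2, HSPA13, SERPINH1, TIMM44 and DNAJC19 ran from 0.00421 to 0.012. Background subtraction made the falls smaller for all genes named here but TRIB3. They were then -1.95 for DNAJA2, -0.70 for HSPA13, -1.03 for SERPINH1, -1.90 for TIMM44, -1.57 for DNAJC19 and -1.32 for XBP1. For TRIB3 the value was -7.21, resting on auxin reads at the background level.

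The genes with the largest rises per list differed in level. ST13, which encodes the HSP70-interacting protein HIP, rose from 151 and 157 CPM to 368 and 269.5 CPM (1.05, edgeR adjusted p = 0.017). The ER genes PDIA6, a disulfide isomerase, and CALR, the lectin chaperone calreticulin, rose by 0.86 (adjusted p = 0.0314) and 0.80 (adjusted p = 0.0399), and CHCHD2 of the mitochondrial intermembrane space rose by 0.61 (adjusted p = 0.0449). The PDIA6 model overlaps ATP6V1C2. ST13, PDIA6, CALR and CHCHD2 were at 20.4 or more times background in every library, and their values after background subtraction were 1.92 to 2.33. DNAJA4 (2.56), the small heat shock gene CRYAB (3.64) and HSF5 (1.998) were also called higher, but lay at 0.971 to 1.51 times background after auxin, and in the case of CRYAB rested on 1.97 and 1.82 CPM. With a factor of unwanted variation DNAJA4 was -0.45 and HSF5 was 0.13.

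The best known heat-inducible HSP70 genes could not be followed. HSPA1A and HSPA1B, near-identical neighbours, had 0 or 1 read in each of the 8 libraries, and HSPA1L had 0 in all of them. It is not stated how reads that match both copies were counted, so these counts do not give their RNA levels.

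In HCT116, 1 gene of the lists was called, where 3.41% of all genes tested were. FKBP5, a co-chaperone of HSP90 and of the glucocorticoid receptor, rose from 77.2 ± 2.03 to 107 ± 2.22 CPM (SD, n = 2), a log2 fold change of 0.47 (SE 0.045, edgeR adjusted p = 0.0308). This call was lost without TOP2B-/- TOP2A-mAID replicate 1 or 2 and with the replicate block, where edgeR called 0 genes, against 2266, 1286 and 2177 genes at an unadjusted p under 0.05. The list medians were -0.04 for cytosolic, -0.17 for mitochondrial, -0.18 for ER and -0.30 for the 20 heat-inducible genes tested, against 0.03 over all genes. The most abundant genes of the mitochondrial and ER lists, which had no call, were the mitochondrial HSP70 gene HSPA9 (-0.18, adjusted p = 0.234) and the ER disulfide isomerase P4HB (-0.40, adjusted p = 0.194), with values given from edgeR's test. Both had lower CPM in both TOP2B-/- TOP2A-mAID libraries than in either control.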

How the data were processed

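Factory-seq RNA of 8 libraries was analysed as raw read counts per RefSeq gene model, which the authors deposited as 1 table per cell line. Counts cover the span of each model, introns included, on hg38. STAR and DESeq2 are named in the submitters' processing notes, without versions, and the strand setting was not given in these sources. Tables of the authors' own comparisons, with fold changes, p-values and a normalized signal, were not used. No design was taken from the supplied paper, whose experiment is a different one.

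Each comparison used its own 4 libraries and edgeR 4.0.16 (quasi-likelihood test, R 4.3.3), with filterByExpr and TMM scaling, with 2 residual degrees of freedom. Two-sided p-values were adjusted by Benjamini-Hochberg over all genes tested, with a threshold of 0.05, and measure only the spread between libraries, which may be technical. CPM were scaled by TMM. Standard errors were derived from the F statistic. Alternatives were library totals alone, RLE scaling, DESeq2 1.42.0, DESeq2 with 1 RUVs factor of unwanted variation (on genes exceeding 10 reads in 2 or more libraries), other count filters, background subtraction, the replicate number as a block, and leaving out each library, which takes the spread of a lone library from the other group. Background was the median density of reads over the 20% of models of at least 5000 bp that were lowest in the other cell line's controls. They were taken on each chromosome but Y, and were not tested for being silent. Subtracted counts had a floor of 0.

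Members and lists were chosen with earlier results of these data known. All members were named, with the 2 largest rises and 2 largest falls among called genes of each list, or its most abundant gene where none was called; 1 such gene is not reported here. Fitting was tested on simulated data with a common dispersion, few genes changed and no added background. That setting differs from the auxin libraries, so it does not test the fit there.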

Additional observations from a re-analysis of the deposited data

How the results depend on the processing

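Of the members' log2 fold changes under other settings in DLD-1, 76 kept direction and call, 20 lost the call, 9 gained one and 2 reversed, and in HCT116 the numbers were 94, 0, 20 and 3. After background subtraction in DLD-1, HSPH1 was 0.0947 and HSPA5 0.332, and no value was given for HSF1, which had 0 reads left in both auxin libraries. In HCT116, HSPA8 was 0.011 with 1 RUVs factor, and HSP90AA1 was 0.0029 with library totals alone and 0.022 after background subtraction. In DLD-1, 11855 genes were called (5678 higher), 10921 with library totals alone (7544 higher), 1685 with 1 RUVs factor (122 higher), and 2393 to 12732 when 1 library was left out. With no library left out, the members called numbered 4 to 7 of 9 in the other settings, against 15.5% to 73.5% of all genes. They were fewer than the 6 of the main fit whichever library was left out. In HCT116, 521 genes were called, against 1851 with DESeq2, 896 with 1 RUVs factor, 1221 at a mean CPM of at least 5, 2307 after background subtraction, and 0 to 2519 when 1 library was left out. The 0 came without TOP2B-/- TOP2A-mAID replicate 1 or 2, where 2266 and 1286 genes had an unadjusted p under 0.05 in edgeR. Members called in HCT116 were 0, against 1 with library totals alone, 4 with DESeq2, 3 with 1 RUVs factor, 3 at a mean CPM of at least 5, 3 after background subtraction, and 0 to 4 when 1 library was left out. The cause of these differences was not tested.

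Libraries with the same replicate number share only a number. Their deviations correlated at 0.588 in DLD-1 and -0.833 in HCT116. With the replicate block edgeR called 12963 genes and 7 members in DLD-1, and 0 genes in HCT116, where 2177 had an unadjusted p under 0.05. With crossed numbers as the replicate block, chosen after seeing the data, 1808 genes and 1 member were called in HCT116. That fit is included in the HCT116 tally of members' log2 fold changes above.

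With 2 libraries a group, the smallest exact two-sided permutation p for 1 value is 0.333. Depth and background limit the auxin libraries most, where HSF1 had 97 and 42 reads.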

Other observations

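HSPE1-MOB4, a readthrough model that starts beside HSPD1 (chr2:197499997-197553699, plus strand), had 5.23 and 7.17 CPM in the DLD-1 controls and 14.2 and 11.3 CPM after auxin. Its log2 fold change was 1.05 (SE 0.33, edgeR adjusted p = 0.0428). In HCT116 it had 3.09 and 4.88 CPM in the controls and 4.16 and 4.36 CPM in the TOP2B-/- TOP2A-mAID libraries (0.10, SE 0.29, edgeR adjusted p = 0.847). Its reads cannot be assigned to HSPE1 or MOB4 from these counts, and they do not stand for HSPE1.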
